A study of Mus musculus with 8 samples.

Results

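The enteric nervous system of the mouse colon was read here through 6 genes that mark classes of gut neurons: CHAT, CALRET, VIP, NPY, PGP9.5 and CALB. They were taken by name from the 68 target genes of a NanoString nCounter panel, a hybridization assay that counts colour-coded barcodes bound to RNA without amplification. The tissue was whole colon from C57BL/6 mice of 7 to 10 weeks of age, kept specific pathogen free. On the high salt diet (HSD), 10 mice ate the control chow supplemented with 4% NaCl for 1 week, and on the control diet 10 mice ate the same chow without the supplement. RNA was pooled after extraction into 4 pools per diet: a pool of 3 female mice, a pool of 2 female mice, a pool of 3 male mice and a pool of 2 male mice. No mouse was measured on its own, and pooling averages over animals.

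Enteric neurons lie in 2 layers of the gut wall, the myenteric plexus, which drives the muscle, and the submucosal plexus, which drives secretion and blood flow. Each class of neuron carries its own combination of transmitters, enzymes and calcium-binding proteins, known as its neurochemical code. CHAT (choline acetyltransferase) makes acetylcholine, the transmitter of excitatory motor neurons and of many interneurons and secretomotor neurons. CALRET, read here as the calcium-binding protein calretinin, is found in many of the same excitatory neurons. VIP (vasoactive intestinal peptide) is released by inhibitory motor neurons and by secretomotor neurons, where it drives chloride and water secretion. NPY (neuropeptide Y) is carried by subsets of the same descending and secretomotor neurons and by sympathetic fibres. PGP9.5 is the ubiquitin hydrolase Uchl1, a marker of neurons in general, and CALB is calbindin, a calcium-binding protein of a subset of enteric neurons.

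CHAT, VIP and NPY matched a mouse gene symbol in the RefSeq table for GRCm38.p6, on chromosomes 14, 10 and 6. PGP9.5 and CALB matched as synonyms of Uchl1 on chromosome 5 and Calb1 on chromosome 4, and CALRET matched neither a symbol nor a synonym. A stretch of 50 bases is shown from the promoters of VIP and CHAT, the peptide and the enzyme that stand for the inhibitory and the excitatory class, with the core motif of the cAMP response element (TGACG, or CGTCA where it lies on the other strand) in capitals. The VIP stretch lies at chr10:5639117-5639166 on the plus strand and its motif begins 79 bases before the annotated start. The CHAT stretch lies at chr14:32466053-32466102 on the minus strand and its motif begins 171 bases before the start.
VIP: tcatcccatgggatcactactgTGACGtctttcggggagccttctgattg
CHAT: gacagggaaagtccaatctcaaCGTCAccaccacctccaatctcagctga
The motif was found in the 250 bases before the start of 5836 of 32851 RefSeq mouse promoters, which is 17.8%, and in 2 of the 4 promoters matched among the 6 genes (those of NPY and PGP9.5 were the others). It is a match of letters and not a measured site.

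How firmly each gene could be read differed widely. The values are normalized counts, scaled by the authors so that the 3 reference genes Gapdh, Gusb and Pgk1 had the same geometric mean in every pool. Low values were replaced by a floor, equal to the geometric mean count of that pool's 6 negative probes, which ran between 1.59 and 6.51 in the HSD pools and between 1.59 and 3.66 in the control pools. CHAT, CALRET and VIP lay above every negative probe in all 8 pools. NPY did so in 2 pools, PGP9.5 in 1 pool and CALB in none, so 3 of the 6 neuronal genes were at or near background in whole colon. PGP9.5, the general neuronal marker, was among these 3. CALRET, whose name matched no symbol or synonym, had 618.46 to 2291.21 normalized counts across the same 8 pools. Which gene its probe reads, and which cells of the colon carried that RNA, was not tested. Of the 48 values of the 6 genes, 33 were above the floor and 15 at it.

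The counts behind the values were recovered, since in every pool the values above the floor were whole multiples of a fixed step. Recovered totals over the panel were 26893 to 169300 counts in the HSD pools and 13574 to 74270 counts in the control pools, and the lowest total on each diet was that of its pool of 3 female mice. There 1 count was worth 3.10 on the HSD and 3.85 on the control diet, whereas in the HSD pool of 3 male mice it was worth 0.409. Intervals on these counts cover counting error only.

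**Figure D1:**
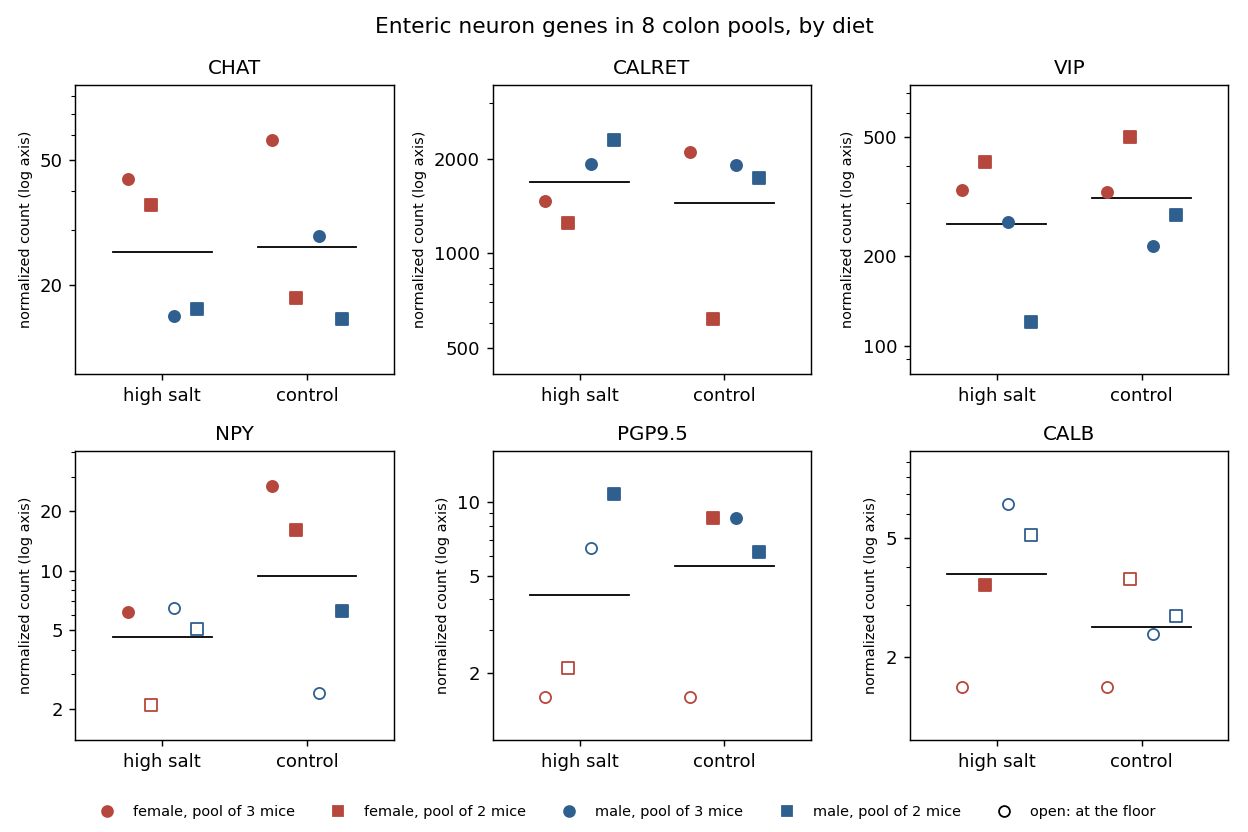
Normalized counts (log axis) of the 6 neuronal genes in each pool, with the HSD pools left of the control pools; red is female and blue male, circles are pools of 3 mice and squares pools of 2 mice, open symbols are at the floor, and the line is the mean on the log2 scale of the value plus 1. CHAT, CALRET and VIP were above the floor in all 8 pools, while CALB was above it in 1.

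CHAT was measured at low level and differed more between pools of a diet than between diets. On the HSD it had 43.45 and 36.01 normalized counts in the pools of 3 and 2 female mice, and 15.96 and 16.74 in the pools of 3 and 2 male mice. In control mice it had 57.82 and 18.25 in the pools of 3 and 2 female mice, and 28.76 and 15.63 in the pools of 3 and 2 male mice. The diets overlapped, the highest and the lowest pool both being control pools. CHAT averaged 28.0 ± 13.8 normalized counts on the HSD and 30.1 ± 19.3 on the control diet (SD, n = 4 pools each). In limma, fitted across the 68 genes on log2 of the value plus 1, the difference was -0.04 (SE 0.497, 95% interval -1.15 to 1.06, adjusted p = 0.942), and it was positive without the control pool of 3 female mice (0.32), without the HSD pool of 3 male mice (0.17) and without the HSD pool of 2 male mice (0.15). Counts of 14 to 39 stand behind these values. In bulk tissue, fewer cells that carry an RNA and less RNA in each cell cannot be told apart. Which cells of the colon gave the CHAT signal was not tested.

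CALRET was well counted and had no diet difference beyond the spread between pools. On the HSD it had 1470.96 and 1252.33 normalized counts in the pools of 3 and 2 female mice, and 1921.89 and 2291.21 in the pools of 3 and 2 male mice. The control pools had 2096.85 and 618.46 in the pools of 3 and 2 female mice, and 1914.01 and 1736.12 in the pools of 3 and 2 male mice. The control pool of 2 female mice was the lowest of all 8, at 618.46 against 1736.12 to 2096.85 in the other control pools, with 576 recovered counts behind it, so its low value was not one of few counts. CALRET averaged 1734 ± 464 on the HSD and 1591 ± 665 on the control diet (SD, n = 4 pools each). The limma difference was 0.23 (SE 0.441, 95% interval -0.75 to 1.21, adjusted p = 0.912), and -0.18 without that control pool of 2 female mice.

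VIP also overlapped between the diets. On the HSD it had 332.05 and 412.41 normalized counts in the pools of 3 and 2 female mice, and 259.53 and 120.45 in the pools of 3 and 2 male mice. Control mice had 327.63 and 498.2 in the pools of 3 and 2 female mice, and 215.7 and 273.03 in the pools of 3 and 2 male mice. The lowest value was that of the HSD pool of 2 male mice, with 223 recovered counts, and the highest that of the control pool of 2 female mice. VIP averaged 281.1 ± 124 on the HSD and 328.6 ± 122 on the control diet (SD, n = 4 pools each). The limma difference was -0.29 (SE 0.446, 95% interval -1.28 to 0.70, adjusted p = 0.912), and 0.07 without the HSD pool of 2 male mice.

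NPY was above every negative probe only in the 2 female control pools. It had 6.21 normalized counts (2 recovered counts) in the HSD pool of 3 female mice, and was at the floor in the other 3 HSD pools, at 2.09 with female mice and at 6.51 and 5.11 with male mice. On the control diet it had 26.98 in the pool of 3 female mice and 16.11 in the pool of 2 female mice, from 7 recovered counts (95% Poisson interval 2.81 to 14.4) and 15 recovered counts (8.40 to 24.7). The control pool of 3 male mice was at its floor of 2.4, and the pool of 2 male mice had 6.25 from 6 counts, with 7 counts in its highest negative probe. The diet difference was -0.88 (SE 0.625, 95% interval -2.27 to 0.51, adjusted p = 0.806; two-sided exact permutation p = 0.229).

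The NPY difference between diets was larger among the female pools. It was -2.21 on the log2 scale among female pools and 0.45 among male pools, where 3 of the 4 values are floors. The interaction of diet and sex in limma was -2.66 (SE 0.840, 95% interval -4.59 to -0.73, unadjusted p = 0.0129), and with Benjamini-Hochberg adjustment p was 0.246. At an unadjusted p under 0.05 the interaction counted 6 of the 68 genes (8.82%), and after adjustment none (0%), so 1 of these 6 was NPY. When every value below the highest negative probe of any pool was set to that level, the NPY interaction was -0.41 (adjusted p = 0.944).

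**Figure D2:**
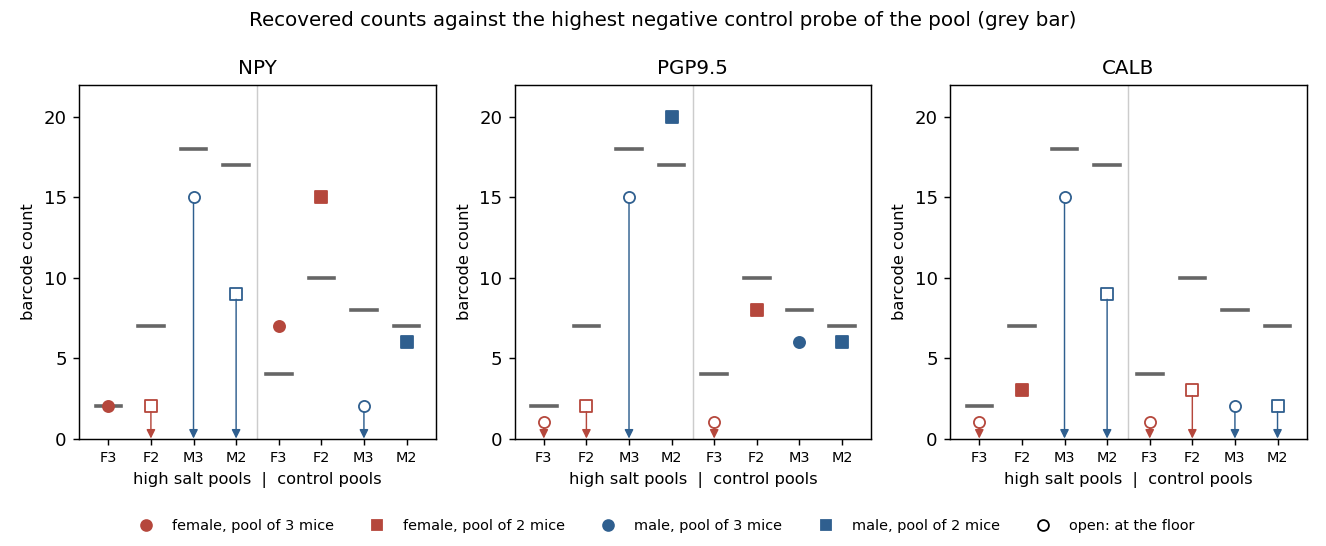
Recovered counts of NPY, PGP9.5 and CALB in each pool (F female, M male, with the number of mice), HSD pools left of control pools; the grey bar is the highest negative probe of the pool, and an open symbol with an arrow marks the highest count that a value at the floor can hide. NPY passed the grey bar in the 2 female control pools and PGP9.5 in the HSD pool of 2 male mice.

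PGP9.5 was above every negative probe in 1 pool, the HSD pool of 2 male mice, where it had 10.8 normalized counts from 20 recovered counts against 17 in the highest negative probe. In the other HSD pools it was at the floor, at 1.59 and 2.09 in the pools of 3 and 2 female mice and at 6.51 in the pool of 3 male mice. On the control diet it was at the floor of 1.59 in the pool of 3 female mice, and had 8.59 in the pool of 2 female mice and 8.63 and 6.25 in the pools of 3 and 2 male mice, from 6 to 8 recovered counts. The diet difference was -0.32 (SE 0.593, adjusted p = 0.912). A floor hides up to 15 counts in the HSD pool of 3 male mice, worth 6.14 normalized counts, and up to 1 count in the HSD pool of 3 female mice, worth 3.10, so that the order of floored pools cannot be read. CALB was above the floor only in the HSD pool of 2 female mice, at 3.49 from 3 counts, below the 7 counts of the highest negative probe there. Its fitted diet difference of 0.45 (SE 0.397, adjusted p = 0.912) is thus almost entirely a difference between floors.

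Between diets none of the 6 neuronal genes passed an adjusted p of 0.05 in limma, and neither did any of the 68 genes (0%). At an unadjusted p under 0.05 the count was 0 of the 6 genes and 3 of the 68 (4.41%). An exact Mann-Whitney test with the same adjustment called 0 of 68 genes and voom on the recovered counts 0 of 47. HSD pools lay entirely above control pools in none of the 6 genes and in 1 of the 68 (1.47%), and entirely below in none (0%). Of the 6 genes, 2 had a positive difference and 4 a negative one, with a median of -0.17, beside 44 positive and 24 negative and a median of 0.18 over the 68 genes. The other 18 genes of the enteric nervous system on the panel (glial genes, neurotrophic factors, receptors and other transmitter genes) had 13 positive and 5 negative differences, a median of 0.27 and no gene past the adjusted p. The highest of these were GDNF, a growth factor for enteric neurons, at 1.17 (SE 0.649, adjusted p = 0.628), and trpv1, the capsaicin receptor of sensory fibres, at 0.98 (SE 0.564, adjusted p = 0.628). Without the control pool of 3 male mice trpv1 was at 1.56 (limma adjusted p = 0.0451), and without both pools of 3 male mice at 1.79 (adjusted p = 0.0168), while with values below the highest negative probe raised to that level it was at 0.42 (adjusted p = 1.00). GDNF averaged 36.4 ± 23.4 normalized counts on the HSD and 17.5 ± 15.2 on the control diet (SD, n = 4 pools each). It did not exceed the highest negative probe in the control pools of 2 male mice (5 counts against 7) and of 2 female mice (7 against 10). With values below the highest negative probe raised to that level, the GDNF difference was 0.63. The lowest was 5HT at -0.69 (SE 0.728, adjusted p = 0.912), which was at the floor in 2 HSD pools and above every negative probe in only 2 of the 8 pools. With values below the highest negative probe raised to that level, the 5HT difference was -0.18. The 95% diet intervals of CHAT, CALRET and VIP were each about 2 wide on the log2 scale.

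**Figure D3:**
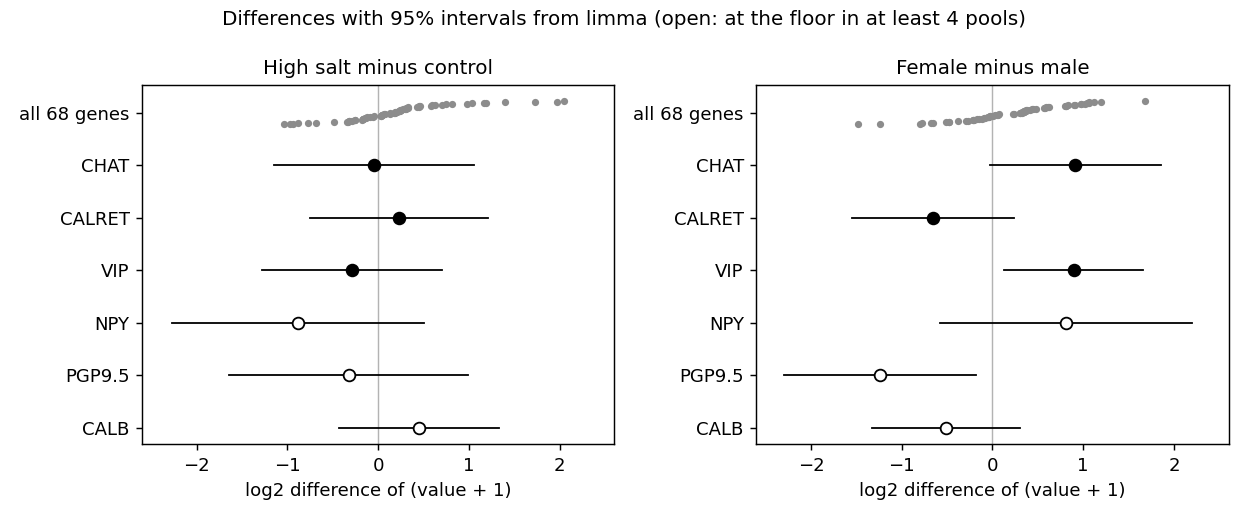
Log2 differences of the 6 neuronal genes with 95% intervals from limma, HSD minus control on the left and female minus male on the right; grey points are all 68 genes, and open symbols are genes at the floor in at least 4 pools. The diet intervals of CHAT, CALRET and VIP include 0, and the interval of the VIP sex difference lies between 0.13 and 1.66.

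VIP separated by sex and not by diet. VIP was 332.05 and 412.41 in the female HSD pools and 327.63 and 498.2 in the female control pools, against 259.53 and 120.45 in the male HSD pools and 215.7 and 273.03 in the male control pools. All 4 female pools were above all 4 male pools. With diet as a covariate the female minus male difference was 0.90 (SE 0.334, 95% interval 0.13 to 1.66, unadjusted p = 0.0268), the two-sided exact permutation p was 0.0286, the smallest that 4 against 4 pools allow, and the adjusted p over the 68 genes was 0.285. It was 1.06 on the HSD and 0.73 on the control diet. Female pools lay entirely above male pools in 7 of the 68 genes (10.3%), and in 7 of the 47 genes that every pool measured above its floor (14.9%), and VIP was 1 of these.

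CHAT leaned the same way and CALRET the other. CHAT averaged 38.9 ± 16.5 normalized counts in female pools and 19.3 ± 6.34 in male pools (SD, n = 4 each), a difference of 0.91 (SE 0.410, 95% interval -0.03 to 1.85, adjusted p = 0.298), with the female control pool of 2 mice lying within the male range. Without that pool, the only female pool within the male range, it was 1.30 (limma adjusted p = 0.0347). With any other single pool left out the limma adjusted p was 0.213 to 0.596. Without both pools of 3 female mice the CHAT difference was 0.44. CALRET averaged 1360 ± 610 in female pools and 1966 ± 233 in male pools (SD, n = 4 each), a difference of -0.65 (SE 0.390, 95% interval -1.55 to 0.24, adjusted p = 0.372), and the groups overlapped through the female control pool of 3 mice. PGP9.5 had a difference of -1.24 (SE 0.460, unadjusted p = 0.0264, adjusted p = 0.285), which 3 floored female pools and 1 floored male pool enter, and without the control pool of 2 female mice, the only female pool above the floor, it was -1.72 (adjusted p = 0.0322). With every value below the highest floor raised to it, the PGP9.5 difference was -0.16.

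The whole panel leaned towards the female pools. Of the 68 genes, 43 had a positive female minus male difference, with a median of 0.32, and centring each pool on its median moved this to 52 positive and a median of 0.47. At an unadjusted p under 0.05 there were 9 of 68 genes (13.2%), of which 8 were positive, VIP among them. PGP9.5, also 1 of the 9, was negative (-1.24) and above the floor in only 4 pools. None passed after adjustment in limma (0%), while voom on the recovered counts called 1 of 47, P75. Of the other 18 enteric nervous system genes, 14 were positive and 4 lay entirely higher in the female pools. These were P75, SOX10, GABAB and NR2D, which are named here after their values were seen. P75 is read from its panel name as a neurotrophin receptor of glia and neural crest cells, and SOX10 is the transcription factor of enteric glia. P75 had 56.91 to 74.48 normalized counts in female pools and 24.45 to 32.95 in male pools, a difference of 1.20 (SE 0.243, adjusted p = 0.0711).

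Summed markers of other cell types overlapped between the sexes in all 4 lists, and no test was run on them. The summed glial genes (2 of 3 above the floor in all pools) were 46.17 to 179.99 in female pools and 39.67 to 83.4 in male pools. Summed lymphocyte genes (1 of 6 above the floor in all pools) were 47.05 to 95.68 in female pools and 39.34 to 48.42 in male pools, and summed myeloid genes (2 of 4) were 60.13 to 200.43 in female pools and 51.95 to 74.77 in male pools. Summed epithelial genes (5 of 5) were 28319 to 63853 in female pools and 30750 to 88593 in male pools, and both of the lowest panel totals were female pools. The part of cell composition and of depth in the sex differences was not tested.

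The ratio of VIP, an inhibitory marker, to CHAT, an excitatory marker, varied from pool to pool. VIP was 7.64 and 11.5 times CHAT in the pools of 3 and 2 female mice on the HSD, and 16.3 and 7.20 times CHAT in the pools of 3 and 2 male mice. In control mice VIP was 5.67 and 27.3 times CHAT in the pools of 3 and 2 female mice, and 7.50 and 17.5 times CHAT in the pools of 3 and 2 male mice. The mean log2 ratio was 3.33 ± 0.55 on the HSD and 3.58 ± 1.05 on the control diet (SD, n = 4 pools each), so the diets differed by less than 1 SD of either. Ratios carry the binding of each probe and are compared here only between pools. They also carry the counting error of 14 to 39 recovered CHAT counts, whose part in this spread was not tested.

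CALRET per CHAT was split by sex rather than by diet. It was 33.9 and 34.8 in the pools of 3 and 2 female mice on the HSD, and 120.4 and 136.9 in the pools of 3 and 2 male mice. On the control diet it was 36.3 and 33.9 in the pools of 3 and 2 female mice, and 66.6 and 111.1 in the pools of 3 and 2 male mice. The mean log2 ratio was 5.12 ± 0.05 in female pools and 6.72 ± 0.46 in male pools (SD, n = 4 each). The female ratios rest on 14 to 31 recovered CHAT counts. In the pools of 3 female mice the 95% Poisson interval of the CHAT count was 7.65 to 23.5 on the HSD and 8.40 to 24.7 on the control diet. The female SD of 0.05 is smaller than such counting error, so the closeness of the female ratios cannot be read as a fixed proportion. The pattern was noticed in the values and was not tested.

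VIP per CALRET was highest in the control pool of 2 female mice and lowest in the HSD pool of 2 male mice. It was 0.226 and 0.329 in the pools of 3 and 2 female mice on the HSD, and 0.135 and 0.0526 in the pools of 3 and 2 male mice. The control pools had 0.156 and 0.806 with 3 and 2 female mice, and 0.113 and 0.157 with 3 and 2 male mice. On the HSD both female pools were above both male pools, and on the control diet the pool of 3 female mice and the pool of 2 male mice had nearly the same ratio.

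Ratios with NPY, PGP9.5 and CALB were limited by background. NPY was above every negative probe only in the control pools of 3 and 2 female mice, where it was 0.467 and 0.883 times CHAT, so there is no ratio on the HSD to set beside these. PGP9.5 was above every negative probe only in the HSD pool of 2 male mice, with 20 counts against 17, and ratios to it are not given.

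Across the 8 pools CALRET and VIP ran in opposite directions. Pearson's r of their log2 values was -0.76 (two-sided exact permutation p = 0.0424) and Spearman's rho was -0.83 (p = 0.0154), with adjusted p of 0.276 and 0.251 over 1225 pairs of genes. Without the 2 pools farthest from the median of CALRET r was -0.66 (exact p = 0.157), with diet means removed it was -0.75 and with sex means removed -0.62, but after each pool was centred on its median it was -0.13, so the relation depended on the scaling. None of the 1225 pairs passed the adjusted p (0%), and 209 pairs (17.1%) had an unadjusted p under 0.05. All values share the scaling to the reference genes, and r was above 0 in 741 of 1081 pairs of genes above the floor (68.5%), with a median of 0.29.

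CHAT and VIP had r = 0.34 (exact permutation p = 0.427, adjusted p = 0.702) and rho = 0.40 (p = 0.327), which was 0.30 without the 2 pools farthest from the median and -0.40 with sex means removed. CALRET and CHAT had r = 0.11 (exact permutation p = 0.839, adjusted p = 0.931) and rho = -0.10 (p = 0.840), and r = -0.22 without the 2 farthest pools. With sex means removed, a setting chosen after the values were seen, CALRET and CHAT had r = 0.84 (permutation p within sex = 0.0330, adjusted p = 0.295). Each sex and each diet held 4 pools, too few for an r of its own.

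**Figure D4:**
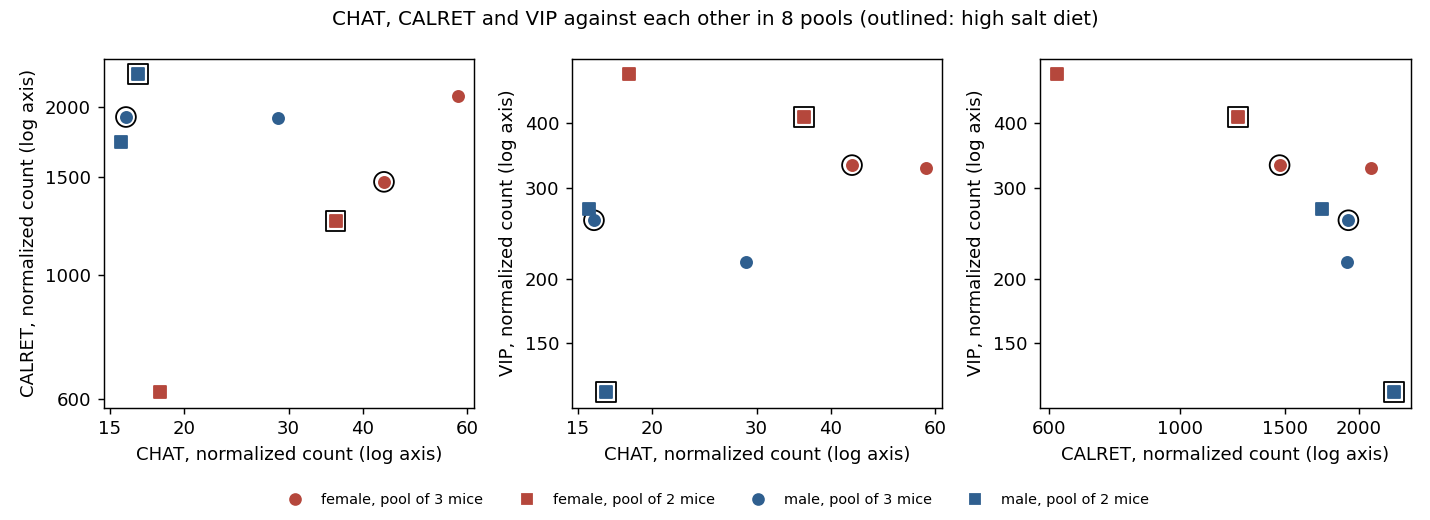
Normalized counts (log axes) of CHAT, CALRET and VIP against each other, 1 symbol per pool; red is female and blue male, circles are pools of 3 mice and squares pools of 2 mice, and an outline marks the HSD. CALRET and VIP ran in opposite directions (r = -0.76), and the 4 female pools had less CALRET for their CHAT than the 4 male pools.

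CHAT varied across pools together with many genes, those of the enteric nervous system among them. Its r was above 0 for all 11 of those above the floor in all pools, from 0.02 for trpv1 to 0.91 for NOS, with a median of 0.79. Over all 46 other genes above the floor it was above 0 for 39 (84.8%), with a median of 0.51. NOS, read here as the nitric oxide synthase of neurons, marks inhibitory neurons rather than cholinergic ones. The panel name does not say which form of the enzyme it is. CHAT and NOS had rho = 0.90, r = 0.95 without the 2 pools farthest from the median of CHAT and r = 0.84 with sex means removed (exact permutation p of r = 0.00603, adjusted p = 0.175). CHAT and SUBP, read as substance P, the peptide of excitatory motor neurons, had r = 0.73 (exact permutation p = 0.0426, adjusted p = 0.276) and rho = 0.86. CHAT rests on 14 to 39 recovered counts in each pool. Its highest values, 57.82 and 43.45, were in the control and HSD pools of 3 female mice, where 1 count was worth most (3.85 and 3.10). The part of this scaling in the r values of CHAT, with these and with other genes, was not tested.

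VIP, which is carried together with nitric oxide synthase by inhibitory motor neurons, had r = 0.22 with NOS (exact permutation p = 0.620, adjusted p = 0.822) and rho = 0.31. That r was 0.54 without the 2 pools farthest from the median of VIP and -0.56 with sex means removed. Over the same 11 genes VIP had r above 0 for 6 genes with a median of 0.22, beside 22 of all 46 genes (47.8%) with a median of -0.005. CALRET had r above 0 for 6 of the 11 with a median of 0.04, beside 28 of all 46 (60.9%) with a median of 0.16.

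With sex means removed these signs changed for VIP and CALRET. VIP then had r below 0 for all 11 genes (-0.82 to -0.34) and for 40 of all 46, and CALRET had r above 0 for all 11 (0.26 to 0.85) and for 40 of all 46. CHAT kept r above 0 for all 11 (0.03 to 0.90) and for 39 of all 46. These counts and medians describe 8 pools and were not tested.

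The genes most like each measured member were chosen by Pearson's r over the 8 pools. For CHAT they were MMP9 (a matrix protease of neutrophils and macrophages), with r = 0.95, rho = 0.93 and r = 0.85 without the 2 farthest pools (exact permutation p = 0.000422, adjusted p = 0.103), and CXCR3, a chemokine receptor of T cells, with r = 0.94 and 0.93 without the 2 farthest pools (adjusted p = 0.131). Both were sparsely counted, at 6 to 21 counts for MMP9 and 7 to 21 for CXCR3, and did not exceed the highest negative probe in 4 and 2 of the 8 pools. For VIP they were Tff3, a goblet cell peptide, with r = 0.81 (adjusted p = 0.217) and 0.55 without the 2 farthest pools, and P75, with r = 0.63 (adjusted p = 0.348). The r of VIP and P75 was 0.87 without the 2 farthest pools and -0.71 with sex means removed. For CALRET they were Ocln, the tight junction protein occludin, with r = 0.77 (adjusted p = 0.239) and 0.48 without the 2 farthest pools, and Cxcr4, a chemokine receptor, with r = 0.75 (adjusted p = 0.217), which rests on 2 pools, being -0.05 without them. With sex means removed r was 0.92 for CHAT and MMP9, 0.89 for CHAT and CXCR3, and 0.51 for VIP and Tff3. It was 0.66 for CALRET and Ocln and 0.70 for CALRET and Cxcr4. For NPY, PGP9.5 and CALB no such genes are given, since floored values have no order.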

How the data were processed

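Whole-colon RNA from 8 pools was hybridized to a NanoString nCounter panel of 68 target genes, 3 reference genes, 6 negative and 6 positive control probes. The deposited values are a signal, normalized counts made by the authors in nSolver; its settings are not given in the sources consulted. The values show scaling to Gapdh, Gusb and Pgk1 and a floor at the geometric mean of the negative probes of the pool. Above the floor, 487 of 487 values were multiples of 1 step per pool (tolerance 0.006), which gave the counts. Totals were 13574 to 169300.

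Diet, sex (with diet as covariate) and their interaction were fitted with limma 3.58.1 in R 4.3.3 on log2(value + 1) over the 68 genes, with Benjamini-Hochberg adjustment and a threshold of 0.05. Single genes were also tested by exact permutation in Python 3.11.15 with scipy 1.17.1, over 70 assignments (smallest p 0.0286), and correlations over 40320 pairings. The pipeline was tested on simulated data. For limma these had independent normal noise in each gene and no floor, unlike the pools. The alternatives included other pseudocounts and floors, median centring, weights, left-out pools, a Mann-Whitney test and voom.

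The 6 genes, the lists and the rule for named genes (all 6; the 2 highest and the 1 lowest of 18 other enteric nervous system genes by diet difference; for each gene the 2 most correlated) were chosen with earlier results of these data known. Gene names are those of the panel. Sequences are from RefSeq for GRCm38.p6.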

Additional observations from a re-analysis of the deposited data

Results flagged for a closer look

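CALRET in the control pool of 2 female mice, at 618.46 normalized counts, lay far below the other 3 control pools, which were at 1736.12 to 2096.85. The gap to the nearest pool was 0.845 of the range of the 4 pools on the log2 scale, above Dixon's 95% critical value for 4 values. It was the only 1 of 30 sets of 4 pools to pass, where chance gives about 1.5. VIP had its highest value, 498.2, in the same pool.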

How the results depend on the processing

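The diet differences of CHAT, CALRET and VIP had no fixed sign. Leaving out 1 pool in turn gave -0.29 to 0.32 for CHAT, -0.18 to 0.41 for CALRET, -0.52 to 0.070 for VIP and -0.76 to 0.0090 for PGP9.5. CHAT was 0.21 without both pools of 3 male mice and 0.075 without both pools of 3 female mice, 2 settings chosen after seeing the data. NPY was negative in all 20 alternatives (-1.56 to -0.21, adjusted p 0.2 to 1). Its only 2 values above every negative probe were those of the female control pools. No alternative left out both, so the shared sign adds little. Leaving out 1 pool gave interactions of -0.83 to 0.93 for CALRET (-0.064 with pools weighted by mice), -0.18 to 1.43 for CHAT and -0.22 to 0.88 for VIP. VIP was higher in female pools in all 19 alternatives (0.64 to 1.13, adjusted p 0.167 to 0.542). The sex difference ran from 0.65 to 1.30 for CHAT and from -1.72 to -0.96 for PGP9.5 with 1 pool left out, and the adjusted p passed 0.05 for both without the control pool of 2 female mice. Genes past the adjusted p numbered 0 to 5 for diet with 1 pool left out (5 when the 3-mouse male control pool was out, trpv1 among them) and 6, again with trpv1, without both pools of 3 male mice. For sex they numbered 0 to 7 with 1 pool left out (7 without the control pool of 2 female mice, CHAT and PGP9.5 among them), and 1 with a pseudocount of 10, median centring, a common floor, a mean of at least 20, voom or a background floor, the last 2 added after seeing the data. The r of CALRET and CHAT was -0.10 as Spearman's rho, -0.37 centred on the median, -0.31 to 0.27 with 1 pool left out, -0.22 without the 2 farthest pools and -0.12 without both pools of 3 female mice; the r of CHAT and VIP was -0.40 with sex means removed. The causes were not tested. A common or background floor covers all CALB values and a background floor all PGP9.5 values, so these differences are about 0 by construction.

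Same-numbered pools of the 2 diets shared sex and number of mice. Their deviations from the diet means had r of 0.157 and -0.311 for the pools of 3 and 2 female mice, and -0.518 and 0.111 for the pools of 3 and 2 male mice. Over genes above the floor in all pools these r were 0.384, 0.009, -0.524 and 0.030. So few r values cannot settle whether the replicate numbers pair anything. With the replicate block 0 genes passed the adjusted p for diet and no call changed.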
